A study of Mus musculus with 1536 samples.

Results

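The immediate-early genes are the first genes that a neuron transcribes after it has been strongly excited or has received a growth factor signal, and they need no new protein to be switched on. The kinases and calcium signals of the active cell act on transcription factors that already sit at their promoters, among them CREB at the cAMP response element and SRF at the CArG box, and the transcripts appear within minutes and are short lived. For this reason they are widely used as a record of recent activity in the brain, and because tissue slicing, enzyme digestion and sorting can switch them on too, they are also read as a sign of how cells were handled. Their levels in serotonin neurons were described here for 10 genes, Fos, Fosb, Jun, Junb, Egr1, Ier2, Nr4a1, Arc, Npas4 and Dusp1, out of the 53263 gene symbols of the deposited table. All 10 were among the 25522 genes that were read in 3 or more cells. Levels are in CPM, the reads of a gene scaled to all reads assigned to genes in that cell, and all 10 had a mean of at least 1 CPM over cells, the minimum set for comparisons between cells. The genes were listed by name but chosen by their levels as well, since the CPM of these same cells was already known when the list was drawn up, so their levels and differences are given as a description throughout, with no test.

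The data were Smart-seq2 libraries of single serotonin neurons from C57BL/6J mice 40 to 45 days old that carried Sert-Cre and the Ai14 reporter, in which Cre made from the serotonin transporter gene switches on the red protein tdTomato. All cells shared this genotype, strain and age, and the labels name no treatment. A cell that made Cre only during development is labelled too, so the label marks past as well as present transporter expression. The table held 999 cells, 290 from a dissection of the principal dorsal raphe (pDR) on 5 plates, and 709 from a dissection labelled All DR on 11 plates, which by the design text also held the median raphe. Each dissection was made in several mice, and both sexes were used. The labels gave the plate and well of each cell but not its mouse, so the cells could not be grouped by animal, a plate could not be told apart from the animals sorted into it, each of the 2 dissections was treated as 1 sample, and no p-value was computed. The reads assigned to genes had a median of 827283 per cell, with a range of 96834 to 2780443, and carried no molecular identifiers, so counts are of reads. Tph2, the enzyme that makes serotonin in the brain, had at least 1 read in all 999 cells, and Slc6a4, the transporter itself, in 99.8% of them.

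Of the 10 genes, 4 encode subunits of the dimeric transcription factor AP-1 (Fos, Fosb, Jun and Junb). Egr1 encodes a zinc finger factor, Nr4a1 an orphan nuclear receptor, Npas4 a factor that is induced in neurons by calcium entry, and Ier2 a small nuclear protein. Arc encodes a protein of the dendrite that moves AMPA receptors into the cell, and Dusp1 a phosphatase that turns off MAP kinases. RefSeq promoter windows of the build GRCm38.p6 ran from 250 bases before to 50 bases after the gene start. They were searched for 7 of the 10 genes (Fos, Fosb, Jun, Junb, Nr4a1, Npas4 and Dusp1). Those of Egr1, Ier2 and Arc were not searched, so the counts below do not cover these genes. The short form of the cAMP response element, TGACG on either strand, was found in 6 of these 7 windows, all but that of Jun, and in 20.8% of all 32851 promoter windows of the same length. The full element TGACGTCA, which holds the short form on both strands, was found in 1 of the 7, that of Dusp1, and in 1.79% of all windows. No match was found in the 7 windows for the CArG box, for the AP-1 element TGANTCA or for the Egr element GCGTGGGCG, which stood in 1.63%, 7.81% and 0.612% of all windows. A match is a string of letters and not a measured site. Bases farther than 250 before or 50 after the gene start were not searched, so no gene is shown to lack an element. The windows of 4 genes are shown because they hold the shared element in a strongly expressed AP-1 gene, in the phosphatase, and in 2 genes of low level, and capitals mark the short or full cAMP response element on either strand.
Fos, chr12:85473640-85473939, plus strand: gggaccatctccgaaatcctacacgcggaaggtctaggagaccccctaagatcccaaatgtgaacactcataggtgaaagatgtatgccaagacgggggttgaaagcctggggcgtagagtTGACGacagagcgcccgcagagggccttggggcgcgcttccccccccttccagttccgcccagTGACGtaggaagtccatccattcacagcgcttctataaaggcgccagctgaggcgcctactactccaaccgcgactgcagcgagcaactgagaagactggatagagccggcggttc
Dusp1, chr17:26508423-26508722, minus strand: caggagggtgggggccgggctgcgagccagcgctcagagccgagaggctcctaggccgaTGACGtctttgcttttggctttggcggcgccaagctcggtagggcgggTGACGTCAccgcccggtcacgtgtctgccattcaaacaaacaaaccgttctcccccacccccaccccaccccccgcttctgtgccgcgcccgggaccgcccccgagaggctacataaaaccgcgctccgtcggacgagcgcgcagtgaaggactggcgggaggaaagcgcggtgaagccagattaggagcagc
Nr4a1, chr15:101266596-101266895, plus strand: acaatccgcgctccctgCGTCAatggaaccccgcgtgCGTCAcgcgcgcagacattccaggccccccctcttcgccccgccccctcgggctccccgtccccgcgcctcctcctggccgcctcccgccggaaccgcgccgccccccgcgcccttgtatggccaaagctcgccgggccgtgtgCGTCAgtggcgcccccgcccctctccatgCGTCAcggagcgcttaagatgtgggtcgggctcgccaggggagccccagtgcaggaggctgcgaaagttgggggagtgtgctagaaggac
Npas4, chr19:4989922-4990221, minus strand: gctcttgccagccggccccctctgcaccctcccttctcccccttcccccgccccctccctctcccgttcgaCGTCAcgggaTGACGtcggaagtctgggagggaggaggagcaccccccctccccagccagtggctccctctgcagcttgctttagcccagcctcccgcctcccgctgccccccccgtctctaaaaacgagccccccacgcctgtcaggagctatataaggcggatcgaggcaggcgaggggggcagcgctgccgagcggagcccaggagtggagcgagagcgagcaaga

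The Fos window held 2 copies of the short element, 129 and 66 bases before the gene start, and that of Nr4a1 held 4 copies. In Npas4 the 2 copies lay 10 bases apart on opposite strands. In GENCODE M21, on the same build as the mm10 genome of the table, Fos lies at chr12:85473890-85477273, Arc at chr15:74669083-74672570 and Ier2 at chr8:84661331-84662852. The counting ignored strand. The exons of Junb share 173 bases with Prdx2, those of Jun 232 bases with the antisense gene Junos, and those of Dusp1 11 bases with Ergic1, each on the opposite strand, so a small part of these values is uncertain. The other 7 genes share no exon with another gene.

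Before any comparison, 3 plates of the pDR dissection have to be named, since they stood apart from the other 13. On plates SER25, SER39 and SER40 most immediate-early genes were low or listed at 0, while on the pDR plates SER12 and SER13 and on all 11 All DR plates Fos, Jun and Dusp1 had reads in most cells. The mean level of Fos was 76.7 CPM on plate SER12, 164 on SER13, 8.88 on SER25, 8.18 on SER39 and 8.27 on SER40. Over the All DR plates Fos ranged from 136 to 219.9 CPM with a median of 181, so that SER13 lay inside this range and the other 4 pDR plates below it. Reads of Fos were found in 27.9% of the cells of SER25 (12 of 43, exact 95% interval 15.3 to 43.7%), 25.0% of those of SER39 (7 of 28, 10.7 to 44.9%) and 17.1% of those of SER40 (7 of 41, 7.15 to 32.1%). The shares were 92.5% on SER12, 97.6% on SER13, and 77.8 to 94.7% on the All DR plates. The level was lower also within the cells that had a read, at 31.8, 32.7 and 48.5 CPM on SER25, SER39 and SER40 against 82.9 on SER12, 168 on SER13, and 158 to 249 on the All DR plates. In reads per cell these 3 plates were not the shallow ones. Their median number of reads per cell was 1280770, 1536580 and 927186, against 528517 to 1253500 on the other 13. The median number of detected genes was 8966, 9371 and 9242 on them, against 9025 to 9984 on the other 13. SER25 thus had the fewest detected genes of all plates despite its depth, and the part of this in the values was not tested. Thinned to 250000 reads in every cell, which left out 9 cells, the share with a read of Fos was 23.3%, 25.0% and 17.1% on them. Intervals on shares cover counting error only.

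**Figure D1:**
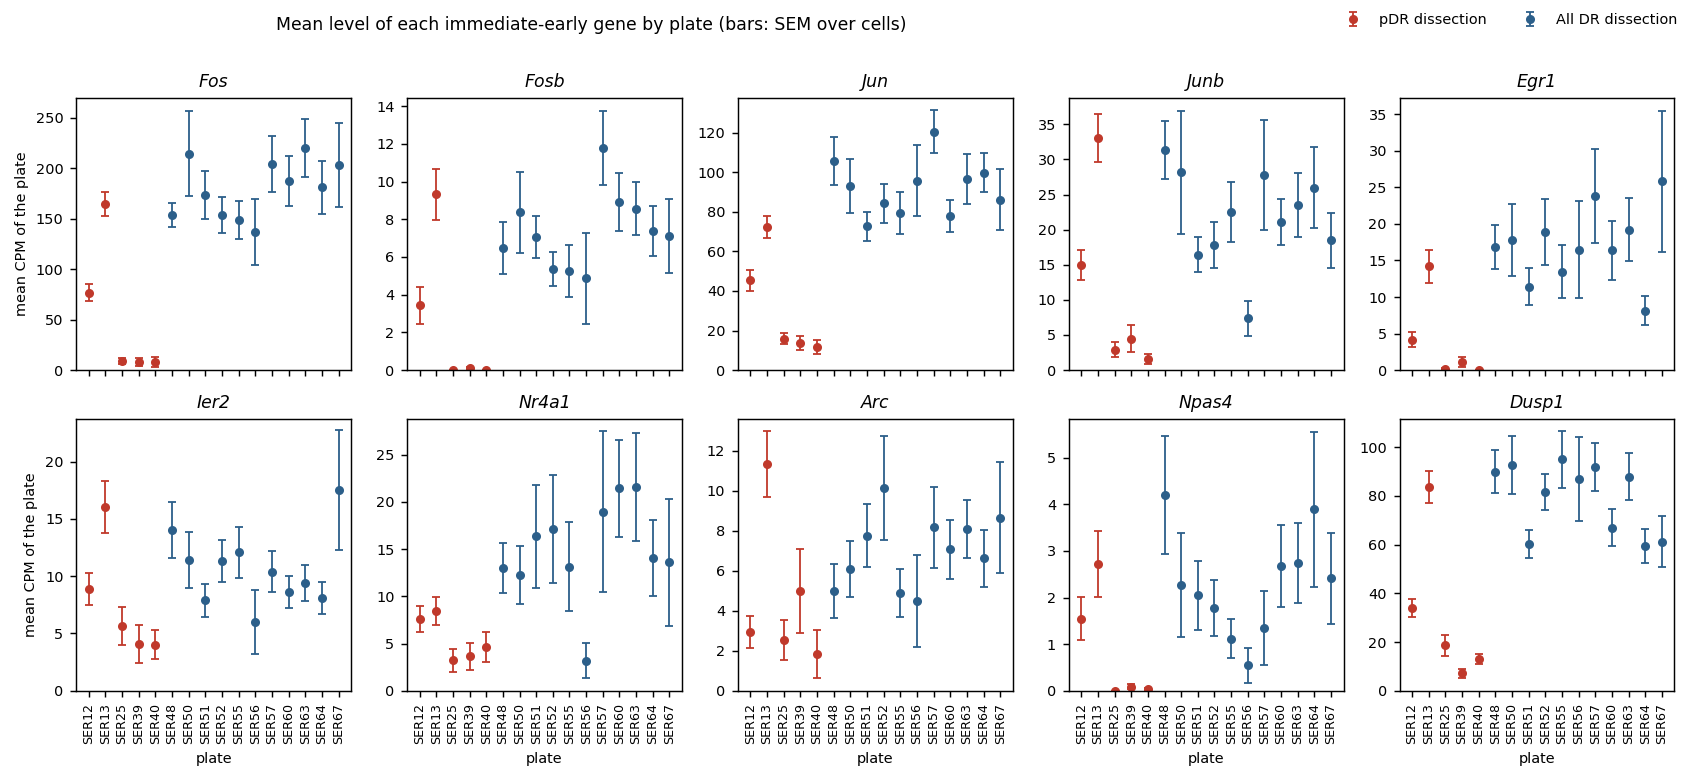
Mean CPM of each of the 10 immediate-early genes on each plate, with the standard error over the cells of the plate, for the pDR dissection (red) and the All DR dissection (blue). The Fos points of SER25, SER39 and SER40 lie at 8.18 to 8.88 CPM, while all 11 All DR plates lie at 136 or higher.

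The other AP-1 genes were low on the same 3 plates. Fosb was at 3.43 CPM on SER12, 9.34 on SER13 and 0.106 on SER39, and no cell of SER25 or SER40 had a read of it, which allows shares of up to 6.98% and 7.32%. On the All DR plates Fosb ranged from 4.87 to 11.8 CPM, with a median of 7.12. For Jun the 5 pDR plates gave 45.5, 72.5, 15.9, 13.7 and 11.6 CPM in the order of their numbers, and the All DR plates 72.7 to 120.5, with a median of 93.2. Jun nevertheless had a read in 65.1%, 50.0% and 53.7% of the cells of SER25, SER39 and SER40. Junb was at 14.9, 33.0, 2.93, 4.48 and 1.57 CPM on the pDR plates and at 7.36 to 31.4 on the All DR plates, with a median of 22.5. SER13 was thus above every All DR plate in Junb, and SER25, SER39 and SER40 were below all of them.

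Egr1 was at 4.17 CPM on SER12, 14.2 on SER13, 0.179 on SER25 and 1.09 on SER39, and no cell of SER40 had a read (up to 7.32% of its cells). Its All DR plates ranged from 8.13 to 25.8 CPM with a median of 16.8. Dusp1 was at 34.0, 83.6, 18.7, 7.11 and 13.0 CPM on the pDR plates and at 59.5 to 95.0 on the All DR plates. It had reads in 62.8%, 57.1% and 73.2% of the cells of SER25, SER39 and SER40. Thinned to 250000 reads these shares were 55.8%, 35.7% and 63.4%, and those of Jun 60.5%, 46.4% and 41.5%. Npas4, the weakest of the 10, was at 1.54 and 2.72 CPM on SER12 and SER13, at 0.0857 on SER39 and 0.0307 on SER40, and had no read on SER25 (up to 6.98% of its cells). The All DR plates had 0.549 to 4.20 CPM of it.

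Ier2, Nr4a1 and Arc set the 3 plates apart less sharply. Ier2 was at 8.90, 16.0, 5.66, 4.05 and 4.01 CPM on the pDR plates and at 6.01 to 17.5 on the All DR plates. Nr4a1 was at 7.63, 8.47, 3.21, 3.65 and 4.67 CPM, and since the All DR plate SER56 had 3.18 CPM of it, no pDR plate lay below every All DR plate. Arc was at 2.96, 11.3, 2.53, 4.98 and 1.85 CPM on the pDR plates against 4.50 to 10.1 on the All DR plates. SER39 was inside the All DR range for Arc, and SER13 above it. The mean Arc level in cells with a read was 15.6, 23.3 and 19.0 CPM on SER25, SER39 and SER40 and 13.4 to 33.9 CPM on the All DR plates, so among positive cells these ranges overlapped.

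Levels can be set against each other only per length of transcript. On the All DR plates, in mean CPM per kilobase of exon with the SD over 11 plates, Fos stood highest at 76.3 ± 12.2, followed by Jun at 28.8 ± 4.34 and Dusp1 at 24.0 ± 4.34. Junb had 9.50 ± 2.92 and Ier2 6.97 ± 2.11, and this pair differed by less than the SD of Junb. Nr4a1 at 4.27 ± 1.46 and Egr1 at 3.82 ± 1.13 could not be ranked either. Arc (2.29 ± 0.581), Fosb (1.18 ± 0.321) and Npas4 (0.550 ± 0.267) closed the order. The order by the share of cells with a read was headed by Dusp1 (89.1% of 999), Jun (88.6%) and Fos (83.1%) and closed by Arc (31.8%) and Npas4 (20.2%).

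A cell had reads of 5.56 of the 10 genes on average on SER12 and of 7.26 on SER13, but of 2.49, 2.50 and 2.29 on SER25, SER39 and SER40. The All DR plates had means of 4.63 to 6.38. After thinning to 250000 reads the means of SER25, SER39 and SER40 were 2.14, 2.11 and 1.98, and those of the other 13 plates 4.33 to 6.83. Cells with 7 or more of the genes made up 28.0% of SER12, 65.9% of SER13 and 11.1 to 52.1% of the All DR plates, and there was no such cell on SER25, SER39 or SER40. Over all plates 16 cells had reads of all 10 genes and 14 cells had reads of none.

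**Figure D2:**
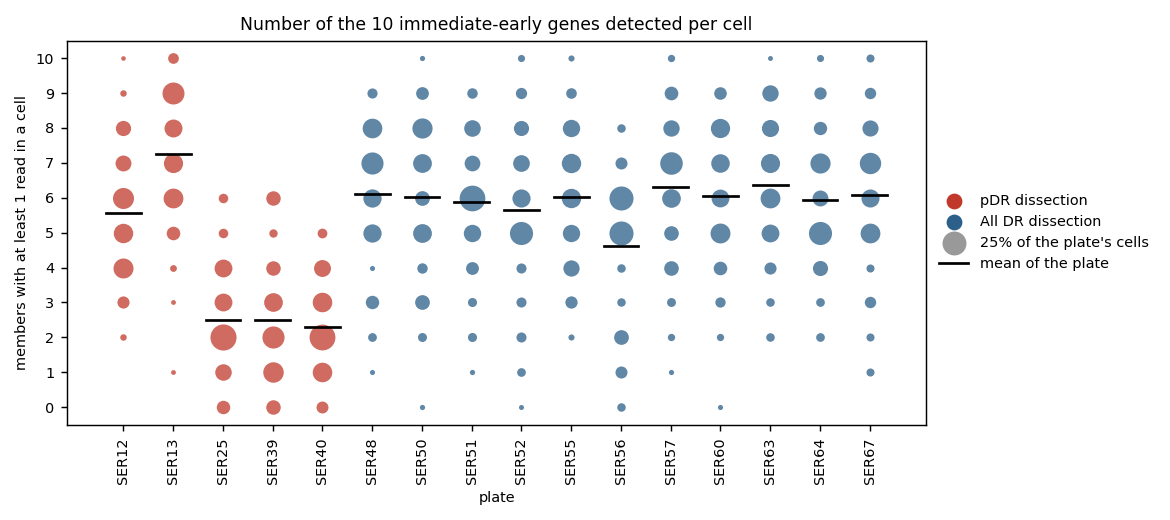
Number of the 10 immediate-early genes with at least 1 read in a cell, by plate; the area of each circle is the share of the plate's cells and the black line is the mean. SER25, SER39 and SER40 have means of 2.29 to 2.50 and no cell above 6, while every other plate has a mean of 4.63 or more.

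As the mean over plates of log2(CPM+1), all 10 genes were lower in the pDR dissection than in the All DR dissection, with a median difference of -1.09, against -0.10 over the 12834 genes with a mean of at least 1 CPM. A difference of at least 1 towards lower pDR values was met by 6 of the 10 genes and by 2.13% of all genes. These were Fos (-3.19), Jun (-2.19), Dusp1 (-1.995), Egr1 (-1.36), Junb (-1.10) and Fosb (-1.07). The differences of Ier2 (-0.44), Nr4a1 (-0.43), Arc (-0.36) and Npas4 (-0.34) were smaller. In none of the 10 genes did the plates of the dissections separate without overlap, which 8.1% of all genes did. The spread of Fos over plates, on the same scale, was 2.80 (SD, 5 plates) in the pDR dissection and 0.38 (SD, 11 plates) in the All DR dissection.

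Taken plate by plate against the mean of the All DR plates, Fos differed by -0.98 on SER12, 0.60 on SER13, -5.03 on SER25, -5.08 on SER39 and -5.44 on SER40. Dusp1 differed by -1.28, 0.31, -2.75, -3.65 and -2.61 on the same plates. SER13 was thus above the All DR mean in both genes and had the highest mean CPM of Arc and of Junb among the 16 plates. Without SER25, SER39 or SER40, left out singly, the count of genes past the difference of 1 went from 6 to 4, since Fosb and Junb were lost each time. With only SER12 and SER13 set against the All DR plates, an alternative chosen after seeing the data, no gene passed, the median difference was -0.03, and the difference of Junb was 0.54 towards higher pDR values.

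The table's header gave 1 more view of the plates. The columns of the cells were interleaved in pairs of plates, with the wells of 1 plate in odd and of the other in even columns of the same rows, so that the 16 plates formed 8 pairs. SER39 and SER40 were a pair of pDR plates, SER12 and SER13 another, and SER25 shared its block with the All DR plate SER48. The labels do not say what a pair stands for. Within that mixed pair Fos was at 1.22 on SER25 and 6.66 on SER48 on the log2(CPM+1) scale, a difference of -5.44, and Dusp1 differed by -3.25, Jun by -3.01, Junb by -2.87 and Egr1 by -2.51. Arc differed by -0.26. The methods list actinomycin D, an inhibitor of transcription, among the reagents, and beside it tetrodotoxin, kynurenic acid and D-AP5. The sources used here do not say for which cells any of them was used. How each plate's tissue was handled, and its part in these values, was not tested, and the animals, the day and the handling of a plate cannot be told apart.

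Over all 999 cells, plates held 33.5% of the variance of Fos in log2(CPM+1), 22.5% of that of Jun, 21.4% of that of Dusp1 and 13.9% of that of Junb. For Egr1 and Fosb the share was 12.3% and 12.2%, and for Arc, Ier2, Npas4 and Nr4a1 it was 5.29%, 4.58%, 4.32% and 3.26%. The median of the 8087 genes with a mean of at least 10 CPM was 4.63%. Within the pDR dissection the shares were far larger, at 61.9% for Fos and with a median over the 10 genes of 31.8%, beside 4.75% for all genes. Within the All DR dissection they were small: 1.54% for Fos and a median of 1.94%, beside 2.37% for all genes. The plate share of Fos among the 11 All DR plates was thus below that of the median gene, while among the 5 pDR plates it was above it.

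Cells of the same plate also differed, and to a degree the genes went together. After the mean of each plate was subtracted, the 45 pairs of genes had a median Pearson r of 0.15 over the 999 cells, from -0.00 for Jun and Arc to 0.45 for Fos and Egr1. An r of at least 0.2 was reached by 18 pairs. The strongest were Fos with Egr1 (0.45), Fosb (0.38), Dusp1 (0.36), Nr4a1 (0.33) and Junb (0.33), and Egr1 with Fosb (0.35) and Junb (0.34). The points share their library and depth within a cell, and many are zeros. With the logarithm of the reads per cell and the number of detected genes removed, Fos and Egr1 stood at 0.46, and after thinning at 0.43.

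By plate, Fos and Egr1 had an r of 0.26 to 0.64 on the 11 All DR plates, 0.19 on SER12 and 0.39 on SER13, and -0.13 and -0.19 on SER25 and SER39, where few cells had a read of either, while on SER40 Egr1 was absent and no r existed. Fos and Nr4a1 were positive on all 16 plates. Without subtraction of the plate means the median r was 0.24, and the pair Fos and Dusp1 went from 0.36 to 0.51 and Fos and Jun from 0.19 to 0.40. These values mix the spread within plates with the differences between plates.

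**Figure D3:**
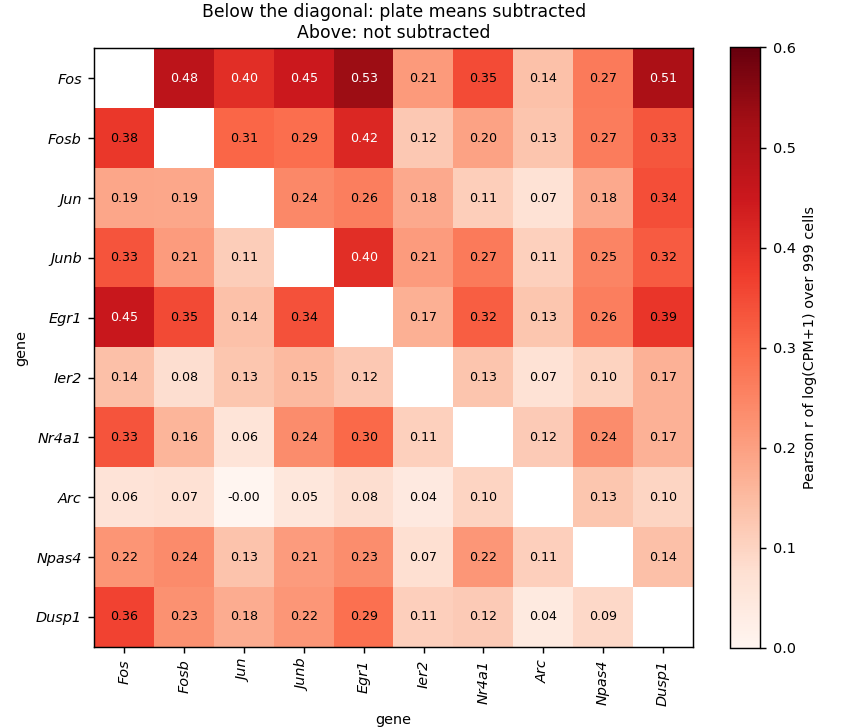
Pearson r of log-transformed CPM between the 10 genes over 999 cells, below the diagonal with each plate's mean subtracted and above it without. Within plates Fos and Egr1 reach 0.45, while no pair with Arc passes 0.11.

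Set against the mean of the other 9 genes, Fos had an r of 0.55, Egr1 0.51, Fosb 0.41, Junb 0.40, Nr4a1 and Dusp1 0.35, Npas4 0.32 and Jun 0.23. Ier2 (0.20) and Arc (0.11) went least with the rest. Arc, although a classic activity gene, had its highest r with Npas4, at 0.11, and a median of 0.06 with the other 9. Arc was detected in 31.8% of cells and Npas4, whose median r was 0.21, in 20.2%, and the part of detection in these values was not tested.

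An index was made for each cell as the mean of the standardised, plate-centred values of the 10 genes, and every other gene with a mean of at least 10 CPM was compared with it. Of these 8080 genes, 16 (0.198%) had an r of at least 0.2, and 8 of the 10 members had one with the mean of the other 9. The list defines the index, so nothing is read from that count, and without SER12 the other genes past 0.2 numbered 28. After thinning they numbered 6, and with depth regressed out 10. The most alike were H3f3b, which encodes the histone variant H3.3 (r = 0.29), and Ppp1r15a, a stress-induced phosphatase subunit that restores translation (0.29). They were followed by the cell adhesion gene Cadm1, the antiproliferative gene Btg2, the chaperones Hspa5 and Dnajb1, then Irf2bpl, the AP-1 gene Jund, Ifrd1 and the clock gene Per1, at 0.24 to 0.22. Of these, Dnajb1, Irf2bpl, Jund and Per1 were at 0.19, 0.19, 0.19 and 0.17 after thinning, below 0.2. Lowest were the mitochondrial ribosomal RNAs mt.Rnr1 (-0.19) and mt.Rnr2 (-0.17), the calcium sensor gene Vsnl1 (-0.18), the sodium-calcium exchanger gene Slc8a1 (-0.16) and the GABA receptor gene Gabrq (-0.15).

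Of these 10 most alike genes, 5 (Jund, Ppp1r15a, Ifrd1, Irf2bpl and Cadm1) were lower on each of SER25, SER39 and SER40 than on every All DR plate. No share of all genes was computed for this rule, so the count is given as a description and nothing is read from it. Jund was at 95.8, 108, 55.6, 15.8 and 16.8 CPM on the 5 pDR plates and at 81.7 to 137 on the All DR plates. Ppp1r15a was at 20.0, 28.1, 9.17, 6.504 and 7.33 CPM and at 15.5 to 22.1 on the All DR plates. Ifrd1 was at 22.3, 25.2, 13.7, 12.9 and 16.7 CPM and at 21.2 to 39.6 on the All DR plates, and its difference between dissections, -1.44 in log2(CPM+1), was the lowest of the 10. Irf2bpl was at 17.8, 18.5 and 15.8 CPM on SER25, SER39 and SER40 against 28.6 to 49.2 on the All DR plates, and Cadm1 at 78.7, 82.3 and 109.6 against 129.9 to 230.4. The other 5 genes (H3f3b, Btg2, Hspa5, Dnajb1 and Per1) overlapped the All DR plates on at least 1 of the 3 plates. Per1 was at 23.3, 23.5 and 25.7 CPM on SER25, SER39 and SER40, and at 16.3 to 26.7 on the All DR plates. On the dissection scale 2 of the 23 listed rapid response genes outside the 10 that could be compared were lower by at least 1 and 1 was higher, and of 11 heat shock genes none was past that difference in either direction.

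Next, within each plate the 25% of cells with the highest index were set against the 25% with the lowest, 245 cells each over 16 plates. The 10 genes defined these cells, and their values serve only to show the size of the gap: Fos had a mean of 298 CPM in the high and 44.8 CPM in the low group, Egr1 36.8 and 2.25, and Arc 12.6 and 3.32. A difference of at least 0.5 in log2(CPM+1) in the same direction on 3 in 4 plates was met towards higher values by 4.15% of the 12834 genes compared, the 10 included. It was met by 9 of 23 other rapid response genes, and by none of them towards lower values. After thinning 7 of them passed, and with a pseudocount of 10 or a required difference of 1 only 3 did. Among the 9 were Btg2 (1.24), the transcription factor Nfil3 (1.23), Ppp1r15a (1.19) and Per1 (0.997, short of a difference of 1). The list of 23 had a median of 0.41 beside 0.14 for all genes. Jund, a relative of Jun and Junb, was higher on all 16 plates but by 0.47, short of the difference required. Beside the 10, 522 genes passed, and without SER39 or SER56 the number was 270 or 344. It was 319 after thinning, 16 with a pseudocount of 10, 13 at a difference of 1 and 1092 when cells were ranked by the number of members detected.

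Of all genes compared, 4.15% passed towards higher values, and a count of 1 or 2 in a short list was not read against that share. Of 10 slower response genes, 4 passed, namely the granule peptide gene Vgf (1.01), Crem (0.66), the prohormone convertase Pcsk1 (0.60) and the growth factor Bdnf (0.52). Vgf and Crem passed after thinning as well, but Pcsk1 (0.48) and Bdnf (0.44) did not. Of 23 kinases and transcription factors known to act upstream of immediate-early genes, 2 passed, the stress kinase Mapk14 (0.76) and the CREB coactivator Crtc2 (0.58). With depth regressed out before the cells were ranked, Mapk14 passed and Crtc2 did not. Heat shock genes passed in 2 of 11 cases (Dnajb1 at 0.61 and Hspa1a at 0.50, neither after thinning), and 1 of 7 genes of the unfolded protein and integrated stress responses did (Ddit3 at 0.52, at 0.44 after thinning). None of the 6 serotonin genes passed: Tph2 differed by 0.22, Slc6a4 by 0.13, Slc18a2 by 0.12, Fev by 0.09, Ddc by 0.05 and Maob by -0.08.

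**Figure D4:**
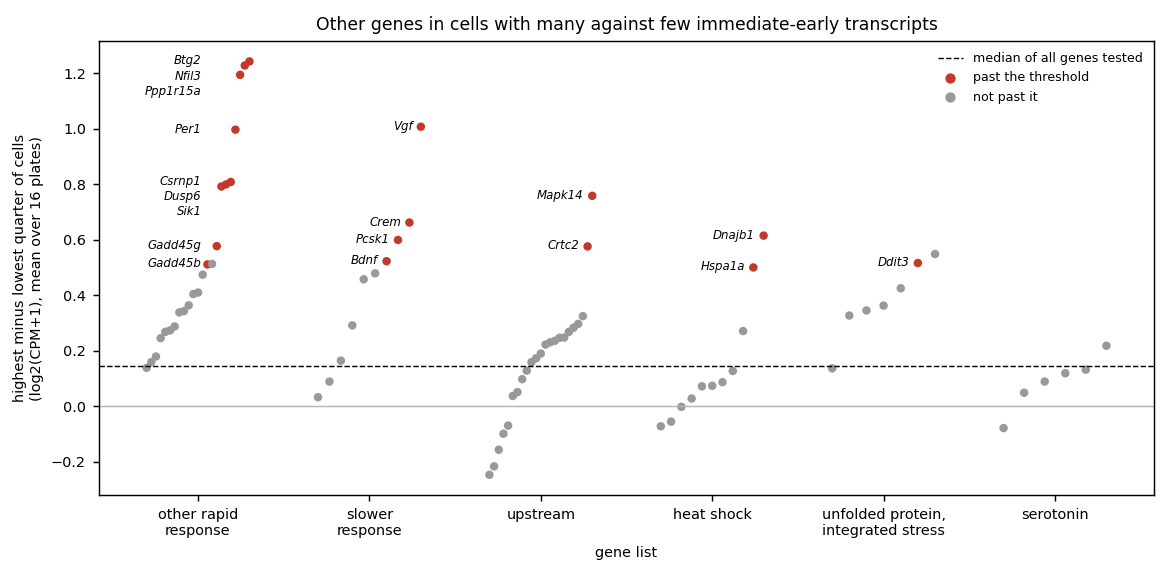
Difference in log2(CPM+1) between the 25% of cells with the highest and with the lowest immediate-early index, averaged over 16 plates, for each gene with a mean of at least 1 CPM in 6 gene lists; red points have a difference of at least 0.5 in the same direction on 3 in 4 plates. The other rapid response genes reach 1.24 (Btg2), while the serotonin genes stay between -0.08 and 0.22.

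Depth moved slightly with the index. The high and low groups had medians of 837714 and 782692 reads and of 9503 and 9377 detected genes, and the high group had more detected genes on 15 of the 16 plates. Within plates the index had an r of 0.08 with the logarithm of the reads, 0.14 with the number of genes, and 0.01 and -0.05 with the row and column of the well. Of 584 genes that passed in either direction, 262 were among the 385 that passed after thinning. Over the 26 markers of microglia, oligodendrocytes, astrocytes and endothelium, of which 22 had reads in at least 3 cells, the summed level had an r of 0.00 with the index. Its plate medians were 145 to 248 CPM in the pDR and 160 to 229 CPM in the All DR dissection. Of the oligodendrocyte markers, Cnp had a median of 67.5 CPM and was read in 96.0% of cells. The defining microglial markers P2ry12, Tmem119, C1qb, C1qc and Csf1r had reads in 0.4004 to 1.40% of cells, and Cx3cr1 and C1qa in fewer than 3 cells.

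Finally, the genes were compared between serotonin neurons that had reads of a subtype marker and the other cells of the same plate. The markers were Slc17a8, the vesicular glutamate transporter VGLUT3, in 65.0% of cells, Gad1 or Gad2, the enzymes of GABA synthesis, in 34.7%, Trh, thyrotropin-releasing hormone, in 13.8%, and Zeb2, a transcription factor, in 15.0%. Trh-positive cells were mostly from the pDR dissection (98 of 138) and Zeb2-positive cells nearly all from the All DR dissection (147 of 150), so that a comparison over all cells pooled would mix marker and plate. Pooled and within-plate values differed: for Dusp1 the pooled difference in Trh-positive cells was -1.10, and within plates it was -0.38. Fos was higher by 1.18 in Zeb2-positive cells pooled and by 0.53 within plates. The pooled values also weight cells and not plates and take in plates with fewer than 5 positive cells.

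Within plates, no member reached a difference of 0.5 with the same direction on 3 in 4 plates in Slc17a8-positive cells on 16 plates (4.91% of all genes did), in Gad1- or Gad2-positive cells on 16 plates (3.9%), or in Trh-positive cells on 10 plates (10.5%). In Slc17a8-positive cells the 10 differences lay between -0.22 (Arc) and 0.31 (Fos), with a median of 0.10, and Fos was higher on 9 and lower on 7 plates. In Gad1- or Gad2-positive cells they lay between -0.37 (Jun) and 0.26 (Egr1), with a median of 0.06. In Trh-positive cells Arc had the highest difference, 0.46, and was higher on 8 of 10 plates, with a range over plates of -0.84 to 2.01, and Dusp1 the lowest at -0.38. Arc was higher on all 5 pDR plates, and it passed when SER60 (0.54) or SER64 (0.60) was left out, so that 1 member then passed for Trh in place of 0. The SD over plates was 0.35 to 1.05 for these differences and larger than each of them. These values do not show that the cells were alike, only that a difference of this size did not recur over plates.

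In Zeb2-positive cells on 11 plates, 1 of the 10 genes passed, beside 16.9% of all genes, so this count was not above the background. The gene that passed was Junb, with a mean of 29.0 CPM in Zeb2-positive and 18.5 CPM in other cells over plates. Its difference was 1.06 ± 0.83 (SD, 11 plates), positive on 9 plates and negative on SER50 (-0.47) and SER52 (-0.23). It was largest on SER48 (2.22), the plate with most Zeb2-positive cells, 44 of 76. Fos (0.53, higher on 8 plates), Egr1 (0.58, on 6) and Nr4a1 (0.56, on 8) had differences over 0.5 without the agreement over plates. On the 5 plates with at least 10 cells on each side, 5 of the 10 genes passed, Egr1 (1.60), Nr4a1 (1.32), Junb (1.29), Fos (0.88) and Dusp1 (0.73), beside 22% of all genes, so the count for Zeb2 rested on how many cells a plate had to hold. Without SER48, SER52, SER57 or SER64 it was 2, and without SER67 it was 3. Zeb2-positive cells had a median of 864648 reads and 9320 detected genes, the other cells 820062 and 9591.

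**Figure D5:**
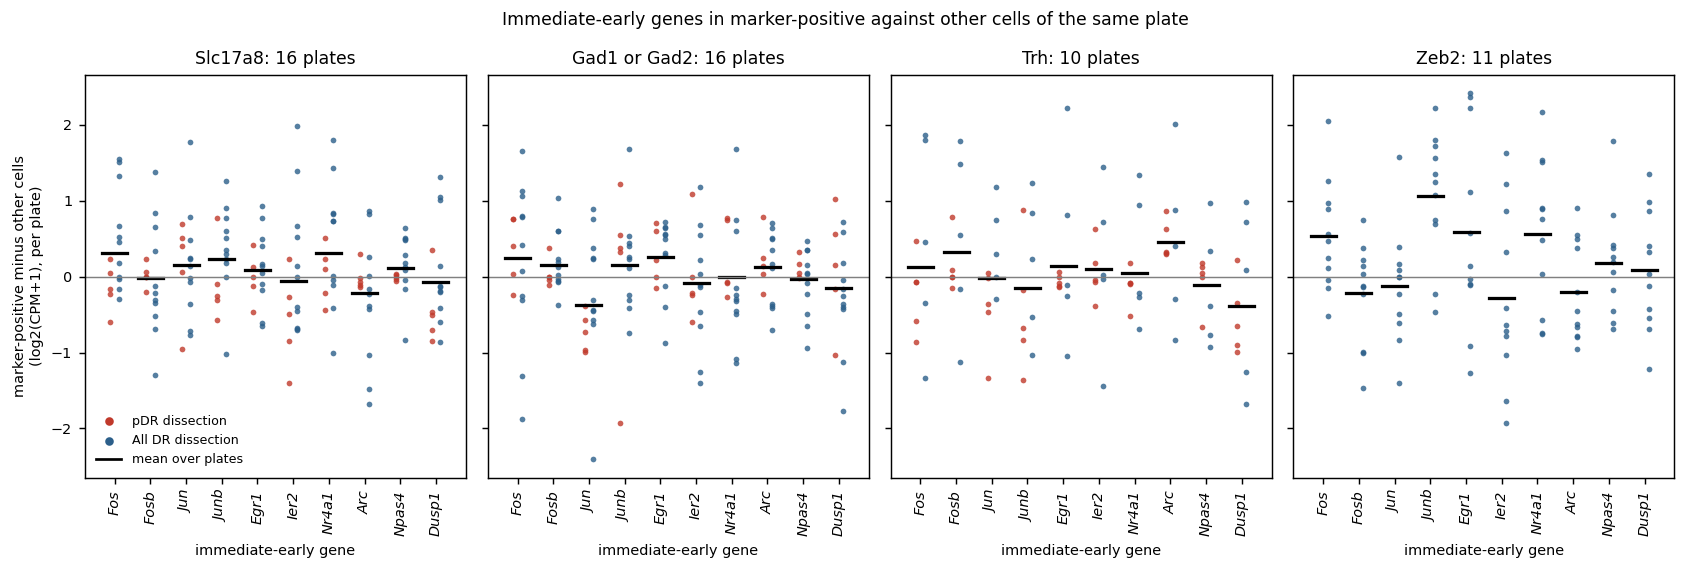
Difference in log2(CPM+1) of each immediate-early gene between marker-positive and other cells, 1 point per plate with at least 5 cells on each side (pDR red, All DR blue) and the mean over plates as a line. The lines of Slc17a8, Gad1 or Gad2 and Trh stay between -0.38 and 0.46, and that of Junb in Zeb2-positive cells stands at 1.06. Junb alone passed for Zeb2, beside 16.9% of all genes, which is not above the background.

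In the pDR dissection alone, 1 gene passed for each of 3 markers, Ier2 in Slc17a8-positive cells (-0.56, lower on 4 of 5 plates), Jun in Gad1- or Gad2-positive cells (-0.73, lower on 5 of 5) and Dusp1 in Trh-positive cells (-0.54, lower on 4 of 5). The shares of all genes that passed there were 11.3%, 11.7% and 13.4%, so 1 of 10 was near the background in each. The mean number of the 10 genes per cell, averaged over plates, was 5.33 in Slc17a8-positive and 5.15 in other cells, 5.30 and 5.29 for Gad1 or Gad2, 5.22 and 5.06 for Trh, and 6.08 and 5.75 for Zeb2. Set beside these, the plates SER25 and SER48 had 2.49 and 6.11.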

How the data were processed

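The authors sorted single tdTomato-positive cells into plates, made Smart-seq2 libraries and deposited 1 table of CPM (reads of a gene scaled to the reads assigned to genes in its cell) for 999 cells, of 1536 labelled; the other 537 are not analysed here. The submitters' processing notes name bcl2fastq 2.19.0.316, STAR 2.6.1a, HTSeq 0.11.2 and mm10 (GRCm38). Reads were counted per gene without strand, and genes of the Y chromosome were removed. All values (100%, tolerance 0.001) were whole multiples of 1 read, which gave each cell's reads. Cells were sorted singly, and no doublet caller was run.

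Values were log2(CPM+1), averaged over the cells of a plate and then over plates. Each dissection held several mice, but no label ties a cell to its mouse, so each was treated as 1 sample and no test was made. A gene passed between cells of a plate at a difference of 0.5 with the same direction on 3 in 4 plates, and between dissections at 1. Shares have exact Clopper-Pearson 95% intervals, and 0 cells allow up to 3. Named are the 10 genes, the subtype markers, the 10 genes with the highest and 5 with the lowest r with the index, at most 4 genes of each other list with the largest difference, and the serotonin genes. The members, lists and thresholds were chosen with earlier results of these data known. Scripts (Python 3.11.15, NumPy 2.4.6, SciPy 1.17.1, pandas 2.3.3) were tested on simulated data. Alternatives were other read minimums, thinning, pseudocounts, filters, weights and each plate left out.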

Additional observations from a re-analysis of the deposited data

How the results depend on the processing

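Replicate numbers were given in accession order only, and each plate number occurs once. No paired analysis was possible because no number is shared between the dissections. The number of immediate-early genes lower by 1 in the pDR dissection, 6, was 3 with a pseudocount of 10, 3 with cells weighted equally, 4 to 6 with single plates left out and 0 with only SER12 and SER13, where Junb was 0.54; that last setting was chosen after seeing the data. The median pairwise r of 0.15 was 0.24 without subtraction of plate means. The genes with an r of at least 0.2 with the index, 16, numbered 6 after thinning, 10 with depth regressed out, 70 with the number of members detected as the index, and 13 to 28 with single plates left out. The other genes higher in cells of high index, 522, numbered 319 after thinning, 16 with a pseudocount of 10, 1092 with the number of members detected, 264 with wider groups of cells, 13 at a difference of 1, and 270 to 565 with single plates left out. Those lower, 52, numbered 7, 34, 24 and 3 with a pseudocount of 10, the number detected, wider groups and a difference of 1. The other rapid response genes that passed, 9, were 3 with a pseudocount of 10 and 3 at a difference of 1. In the pDR dissection alone 1 member passed for Slc17a8, 1 for Gad1 or Gad2 and 1 for Trh, in place of 0. For Zeb2, 5 members passed at 10 cells on each side in place of 1. With single plates left out 1 to 3 passed for Zeb2 and 0 to 1 for Trh. The causes were not tested. Leaving out cells above 50 CPM of glial and endothelial markers kept 18 cells, too few for pairwise r, which was not run there. Depth limits the reading of Npas4, Fosb and Arc, whose absence in a cell may be a missed read, and the unknown animals limit every comparison between plates.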
